A study of Mus musculus with 2 samples.

Results

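The cone phototransduction genes are the 10 genes Opn1sw, Opn1mw, Gnat2, Gnb3, Gngt2, Pde6c, Pde6h, Cnga3, Cngb3 and Arr3, taken by gene symbol from the 31053 genes of the deposited count tables. All 10 were found and all 10 were measured in cones above the minimum used for fold changes (20 CPM, a level defined below, in either library and 20 molecules in all). They were followed in 2 droplet single-cell RNA libraries of mouse retina, a control library from mice injected intravenously with phosphate-buffered saline (PBS) and a library from mice injected with sodium iodate (NaIO3) at 20 mg/kg. Sodium iodate is used to injure the pigment epithelium behind the retina, which is followed by damage to photoreceptors. In both groups the eyes were taken on day 7 and the retinas of 6 mice were pooled into 1 library. With 1 library a group no difference here has a replicate check, no p-value was computed, and every interval is a 95% interval that covers counting error only. The labels name both libraries CD11b-positive microglia, while bead selection is described for the NaIO3 pellets. The kept cells of the PBS library were 5101 rod-like and 13 microglia-like cells out of 5573, and those of the NaIO3 library 4517 rod-like and 1711 microglia-like cells out of 9261. In every comparison below, treatment, bead selection and library cannot be told apart.

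Cones detect bright light and colour. A cone opsin activates the G protein transducin, transducin relieves the inhibition of a phosphodiesterase, the fall in cyclic GMP closes a cation channel in the outer segment, and arrestin ends the opsin's activity. Each step uses a cone form that is distinct from the rod form, so the 10 genes together describe the light response of cones and are commonly used to find these cells.

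Cones were chosen as cells in which Arr3, Opn1sw, Opn1mw, Pde6h and Gnat2 together made up at least 0.5% of the molecules (UMIs, unique molecular identifiers) with at least 10 UMIs of them. This gave 204 of 5573 PBS cells (3.66%, exact binomial interval 3.18 to 4.19) and 208 of 9261 NaIO3 cells (2.25%, 1.95 to 2.57). The median depth of the cones was 10077 UMIs in PBS and 10326 in NaIO3, while their totals were 3227652 and 2644881 UMIs, so the deepest cones weigh more in the PBS sums. In PBS the median share of the 5 genes among a cone's UMIs was 2.80%, with quartiles of 1.74% and 3.64%. In NaIO3 it was 0.996%, with quartiles of 0.685% and 1.44%. NaIO3 cones therefore lay close to the threshold: 105 of 208 had a share under 1%, against 32 of 204 in PBS. Just inside the threshold, between 0.5% and 0.6%, were 11 PBS and 34 NaIO3 cells, and just outside it, between 0.4% and 0.5%, were 7 and 36. Clustering on all variable genes gave a cone-like cluster of 237 PBS and 254 NaIO3 cells. It held 203 of the 204 PBS cones and 169 of the 208 NaIO3 cones, and of the other 39 NaIO3 cones 17 lay in bipolar-like and 15 in Müller glia-like clusters. It also held 34 PBS and 85 NaIO3 cells that missed the rule, with median depths of 58774 and 14030 UMIs. Of 24 cell barcodes that occurred in both libraries, 2 were those of cones.

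**Figure D1:**
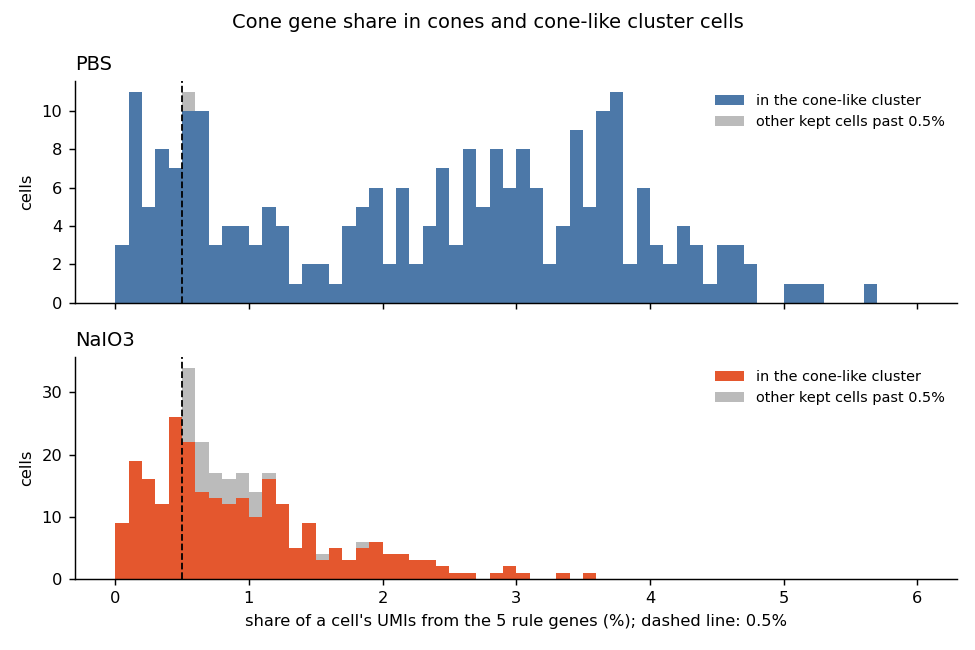
Histograms of the share of each cell's UMIs (x axis, percent) taken by the 5 genes that define a cone, for PBS and NaIO3 (y axis, cells per 0.1% bin). Coloured bars are cells of the cone-like cluster, grey bars other kept cells past 0.5%, and the dashed line marks 0.5%. PBS cones spread up to 5.61% with a median of 2.80%, whereas NaIO3 cones have a median of 0.996% and crowd against the threshold.

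The 3 members with the lowest NaIO3-to-PBS ratios in cones were Arr3, Opn1sw and Gnat2. The 250 bases before their RefSeq starts are shown because these genes stayed at least 1.5 times lower in NaIO3 under every alternative tried. For Opn1sw and Gnat2 these bases lie inside the gene ranges given below, which come from another annotation, GENCODE M21. The RefSeq promoter table (GRCm38.p6) held 6 of the 10 members with 7 start sites. The 6-base motif TAATCC or its complement GGATTA, the core of the element bound by the photoreceptor factor Crx, occurred in 1 of the 7, that of Gnat2, and in 6.25% of all 32851 promoters over the same length. A related 6-base word, CTAATC or its complement GATTAG, was chosen after the sequences had been read. Its counts in these promoters therefore describe them only, and setting them beside all promoters is no test of enrichment. The word occurred in 3 of the 7, those of Arr3, Opn1sw and Gnat2, and in 5.71% of all promoters. In Arr3 it occurred 3 times, with first bases at -117, -103 and -11 from the start; 6 of all 32851 promoters held 3 or more copies. Capitals mark either motif, which overlap in Gnat2.
Arr3, chrX:100605247-100605496, plus strand: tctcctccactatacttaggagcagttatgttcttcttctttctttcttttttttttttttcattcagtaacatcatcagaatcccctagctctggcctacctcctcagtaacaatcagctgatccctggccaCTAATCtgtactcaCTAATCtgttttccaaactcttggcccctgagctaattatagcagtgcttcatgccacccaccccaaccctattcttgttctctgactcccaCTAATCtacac
Opn1sw, chr6:29380514-29380763, minus strand: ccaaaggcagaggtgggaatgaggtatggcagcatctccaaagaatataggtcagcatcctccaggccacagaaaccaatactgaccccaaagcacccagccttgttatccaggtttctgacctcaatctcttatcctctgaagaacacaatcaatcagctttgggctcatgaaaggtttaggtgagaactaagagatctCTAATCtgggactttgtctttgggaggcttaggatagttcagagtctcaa
Gnat2, chr3:108092816-108093065, plus strand: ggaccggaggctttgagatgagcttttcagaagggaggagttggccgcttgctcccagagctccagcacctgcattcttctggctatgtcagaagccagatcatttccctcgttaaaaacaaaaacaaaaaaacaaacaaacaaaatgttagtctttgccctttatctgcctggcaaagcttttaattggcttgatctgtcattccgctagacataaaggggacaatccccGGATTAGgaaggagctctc
A match says only that these letters are present, and the promoters of the other members in the table, Opn1mw, Pde6h and Cnga3, held neither word.

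Levels are in CPM, the UMIs of a gene summed over the cells of a class; CPM stands for counts per 1e6 UMIs of those cells. In cones the 10 members together had 26914 CPM in PBS against 15387 CPM in NaIO3, a ratio of 0.572 (exact conditional binomial interval 0.565 to 0.579). The 5 members that the cone rule does not use, Gnb3, Gngt2, Pde6c, Cnga3 and Cngb3, stood at 7702 and 5544 CPM, a ratio of 0.720 (0.705 to 0.735). Of the 10 members, 4 were at least 1.5 times lower in NaIO3 (Opn1sw, Arr3, Gnat2 and Pde6c) and 0 were at least 1.5 times higher. Among the 7387 genes measured in cones, 7.69% were at least 1.5 times lower and 24.9% at least 1.5 times higher. The median log2 ratio was -0.50 over the members and 0.23 over all genes. Scaling by TMM (trimmed mean of M-values), which shifts every log2 ratio in cones by -0.23, put 9 of the 10 members at least 1.5 times lower, beside 14.9% of all genes lower and 14.8% higher.

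The mitochondrial share of cones differed between the libraries, with medians of 10.8% of UMIs in PBS and 4.81% in NaIO3, and within each library cones with more mitochondrial RNA held more of the members. The summed members stood at 14461, 21792 and 31954 CPM in PBS cones with 0 to 5% (7 cones), 5 to 10% (71 cones) and 10 to 15% (126 cones) mitochondrial UMIs. In NaIO3 they stood at 13360 (113 cones), 18102 (83 cones) and 26711 CPM (12 cones). Within a range of mitochondrial share the difference in the sum was smaller, with ratios of 0.831 (0.815 to 0.846) at 5 to 10% and 0.836 (0.799 to 0.874) at 10 to 15%. The cones were not matched within a range, and the part of any remaining difference in share was not tested. At 5 to 10%, where both libraries have over 70 cones, 3 of the 10 members (Opn1sw, Arr3 and Gnat2) were at least 1.5 times lower and 0 higher, beside 11.0% of 7346 genes lower and 24.9% higher. In the cone-like cluster the same 3 members were at least 1.5 times lower and 0 higher, beside 6.61% of 7203 genes lower and 25.2% higher.

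**Figure D2:**
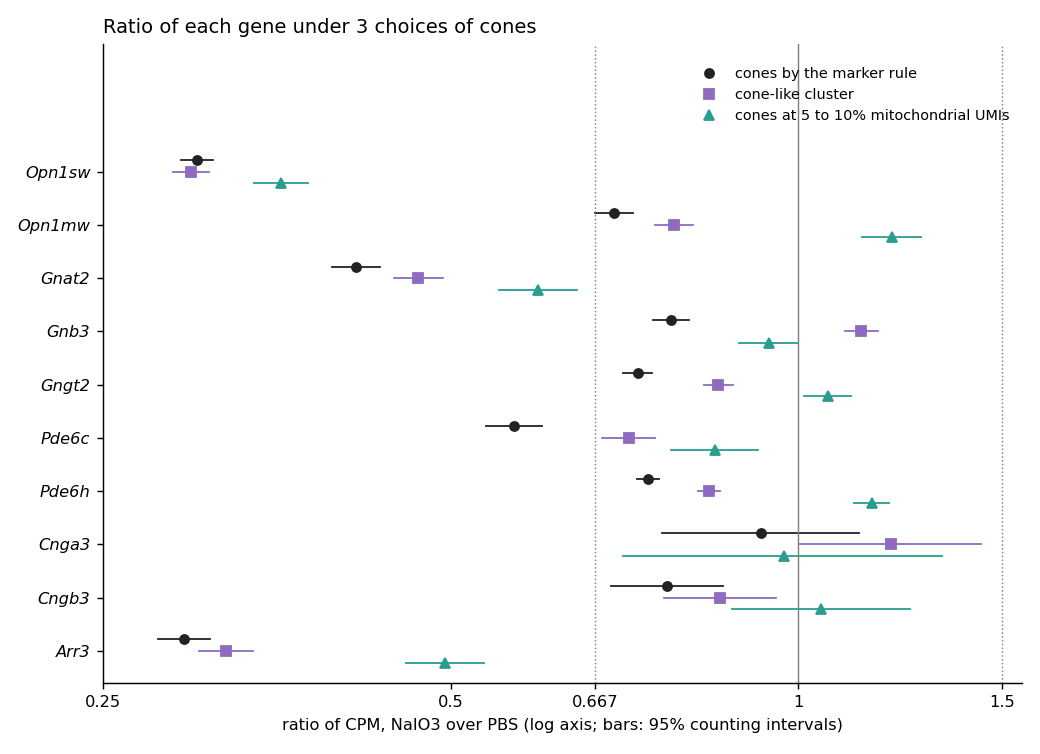
Ratio of CPM, NaIO3 over PBS (x axis, log scale), for each member in cones chosen by the rule (circles), in the cone-like cluster (squares) and in cones with 5 to 10% mitochondrial UMIs (triangles). Bars are 95% counting intervals, the solid line marks a ratio of 1 and dotted lines a difference of 1.5 times. Opn1sw, Arr3 and Gnat2 lie left of the lower dotted line for all 3 choices, while the other members move toward or past 1.

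The opsins set which wavelengths a cone absorbs. Opn1sw, the short-wave (S) opsin gene at chr6:29376671-29388468 on the minus strand (GRCm38, GENCODE M21), stood at 5886 CPM in PBS cones and 1776 CPM in NaIO3 cones, a ratio of 0.302 (0.292 to 0.311). Single cones ranged from 0 to 29673 CPM with a median of 5555 in PBS, and from 0 to 16854 CPM with a median of 77.5 in NaIO3, so the libraries overlap and NaIO3 lacks the upper part of the PBS range. This ratio was 0.298 in the cone-like cluster and 0.356 (0.338 to 0.376) at 5 to 10% mitochondrial UMIs, and it ranked 29th from the lowest among the 7387 genes. Opn1mw, the middle-wave (M) opsin gene at chrX:74127464-74150760 on the plus strand, stood at 2306 and 1597 CPM, a ratio of 0.693 (0.667 to 0.719). In single cones it ranged from 0 to 12380 CPM with a median of 2196 in PBS, and from 0 to 12615 CPM with a median of 1554 in NaIO3, so the ranges coincide. Its direction turned with the mitochondrial share: the ratio was 1.20 (1.14 to 1.28) at 5 to 10% and 1.05 (0.915 to 1.20) at 10 to 15%. Opn1sw overlaps Calu in the annotation, on the opposite strand.

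Mouse cones express the S opsin, the M opsin or both. Cones in which Opn1sw made up at least 90% of the opsin UMIs were 64 of 204 in PBS (31.4%, 25.1 to 38.2) and 45 of 208 in NaIO3 (21.6%, 16.2 to 27.9). Cones in which Opn1mw made up at least 90% were 74 of 204 (36.3%, 29.7 to 43.3) and 109 of 208 (52.4%, 45.4 to 59.4). The cones between these limits numbered 66 and 49, and cones with no opsin UMI 0 and 5. At 5 to 10% mitochondrial UMIs the S share was 29.6% (19.3 to 41.6) in PBS and 14.5% (7.70 to 23.9) in NaIO3, and the M share 28.2% (18.1 to 40.1) and 63.9% (52.6 to 74.1). The mix of opsins thus leaned further to M in the NaIO3 library. Within the classes, Opn1sw had 9664 CPM in PBS against 5169 CPM in NaIO3 cones of the S class. Opn1mw had 4541 against 2428 CPM in cones of the M class. Each opsin was thus lower in NaIO3 also where it dominates, but these class levels were not split by mitochondrial share. Over cones of any class the Opn1mw ratio was 1.20 at 5 to 10% and 1.05 at 10 to 15% mitochondrial UMIs. The Opn1sw ratio was 0.356 and 0.544 there. Whether the difference within the M class holds within a range was not tested. These classes are cut from the opsin counts themselves and describe the cells only.

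The cone transducin is built from an alpha, a beta and a gamma subunit, encoded by Gnat2, Gnb3 and Gngt2. Gnat2 at chr3:108092789-108101432 on the plus strand stood at 2019 CPM in PBS cones and 836 CPM in NaIO3 cones, a ratio of 0.414 (0.394 to 0.435). Single cones ranged from 287 to 6354 CPM with a median of 2831 in PBS, and from 0 to 3555 CPM with a median of 883 in NaIO3. The third quartile of NaIO3 cones, 1249 CPM, lay below the first quartile of PBS cones, 1435 CPM. Gnat2 was also lower in the cone-like cluster (0.469) and at 5 to 10% (0.595, 0.551 to 0.643) and 10 to 15% mitochondrial UMIs (0.616, 0.505 to 0.745). Gnb3 at chr6:124834240-124840275 on the minus strand stood at 2406 and 1866 CPM, a ratio of 0.775 (0.748 to 0.804), but its direction turned to 1.13 (1.10 to 1.17) in the cone-like cluster. Gngt2 at chr11:95837216-95845734 on the plus strand stood at 3757 and 2727 CPM, a ratio of 0.726 (0.705 to 0.747), and turned to 1.06 (1.01 to 1.11) at 5 to 10% mitochondrial UMIs. The alpha subunit thus differed between the libraries by more than its beta and gamma partners under each of these choices.

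The effector is the cone phosphodiesterase, with the catalytic subunit Pde6c and the inhibitory subunit Pde6h. Pde6c at chr19:38132781-38183958 on the plus strand had 1210 CPM in PBS against 686 CPM in NaIO3 cones, a ratio of 0.567 (0.536 to 0.5998). It was the one called member that the cone rule does not use, and its ratio was 0.713 (0.676 to 0.752) in the cone-like cluster and 0.847 (0.776 to 0.923) at 5 to 10% mitochondrial UMIs, short of 1.5 times in both. Pde6h at chr6:136923832-136968865 on the plus strand, which overlaps Arhgdib on the other strand, stood at 6679 and 4953 CPM, a ratio of 0.742 (0.726 to 0.758). Every cone of either library held a UMI of Pde6h. In single cones it ranged from 1220 to 21669.6 CPM in PBS, with a median of 9589, and from 796 to 14758 CPM in NaIO3, with a median of 4850. At 5 to 10% mitochondrial UMIs its ratio was 1.16 (1.12 to 1.20), so the inhibitory and the catalytic subunit lay on opposite sides of 1 there.

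The cone cyclic nucleotide-gated channel has Cnga3 and Cngb3 subunits. Cnga3 at chr1:37214434-37263384 on the plus strand stood at 74.98 CPM (242 UMIs) in PBS cones and 69.6 CPM (184 UMIs) in NaIO3 cones. The interval of its ratio of 0.928 reached from 0.762 to 1.13, and in the cone-like cluster the ratio was 1.20 (1.002 to 1.44), so its direction depended on how cones were chosen and a difference of the alpha subunit under the rule was not detectable at this depth. Cngb3 at chr4:19280850-19510623 on the plus strand, overlapping Gm11877 on the same strand, stood at 254 and 196 CPM, a ratio of 0.770 (0.689 to 0.861). Its ratio was 1.05 (0.876 to 1.25) at 5 to 10% mitochondrial UMIs.

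Arr3, cone arrestin, ends the signal by binding the phosphorylated opsin and lies at chrX:100605497-100618493 on the plus strand. It stood at 2322 CPM in PBS cones and 682 CPM in NaIO3 cones, a ratio of 0.294 (0.279 to 0.309), 25th from the lowest among the 7387 genes. Single cones ranged from 136 to 9747 CPM with a median of 2680 in PBS, and from 0 to 6215 CPM with a median of 457 in NaIO3. The third quartile of NaIO3 cones, 1015 CPM, lay under the first quartile of PBS cones, 1588 CPM. The ratio was 0.319 in the cone-like cluster, 0.494 (0.457 to 0.534) at 5 to 10% and 0.583 (0.482 to 0.699) at 10 to 15% mitochondrial UMIs. In PBS, Arr3 stood at 1359 CPM in the S class and 3641 CPM in the M class of cones. In NaIO3 it stood at 537 and 762 CPM, so the level in the M class was nearer to that in the S class.

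Shares of cones with a UMI, after each cell was thinned to 1000 UMIs, differed most for Arr3 and least for Gngt2 and Pde6h among the 5 members given here. A UMI of Arr3 was found in 88.7% of PBS cones (83.5 to 92.7) and 42.0% of NaIO3 cones (35.2 to 49.1), and without thinning in 100% and 93.8%. For Gnat2 the thinned shares were 88.7% (83.5 to 92.7) and 60.9% (53.9 to 67.6), for Pde6c 77.8% (71.5 to 83.3) and 55.6% (48.5 to 62.4). In rod-like cells, which are not known to need these cone forms, the shares were 1.43% and 0.706% for Arr3, 0.661% and 0.212% for Gnat2 and 0.372% and 0.118% for Pde6c, at median depths of 2382 and 2639 UMIs. For Gngt2 the cone shares were 92.6% (88.1 to 95.8) and 90.3% (85.5 to 94.0), and for Pde6h 98.0% (95.03 to 99.5) and 95.2% (91.3 to 97.7), so nearly every cone held a UMI of each; Pde6h is one of the genes that define a cone, which favours this. Their shares in rods were 1.12% and 1.34% for Gngt2 and 1.94% and 1.22% for Pde6h. 1 cone was too shallow for thinning in each library.

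**Figure D3:**
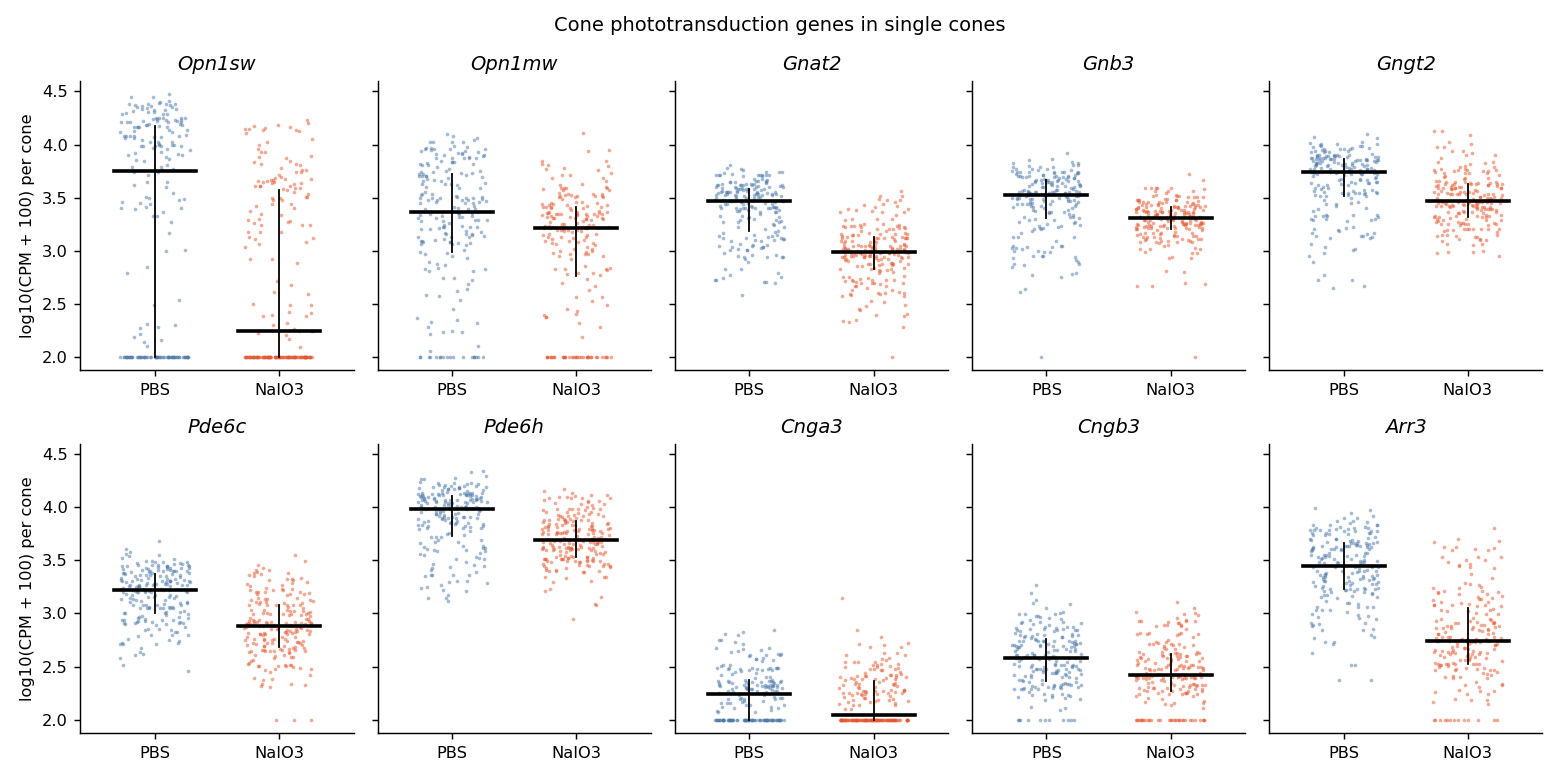
Level of each member in single cones of the PBS and NaIO3 libraries as log10(CPM + 100) on the y axis; each point is a cell, the thick line the median and the thin line the quartiles, and the cells of 1 library are not replicates. The medians of Arr3 (2680 and 457 CPM) and Gnat2 (2831 and 883 CPM) lie far apart, those of Pde6h (9589 and 4850 CPM) and Gngt2 closer together.

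Outside cones, free RNA in the droplets can give UMIs of cone genes in cells that do not express them, and most members were at a low level in rods. In rod-like cells the 8 members other than Gnb3 and Gngt2 together had 56.7 CPM in PBS against 37.8 CPM in NaIO3, a ratio of 0.667 (0.601 to 0.739). For 100 UMIs of Pde6h, PBS rods held 67.0 of Opn1sw, 26.6 of Gnat2 and 17.7 of Pde6c, and PBS cones 88.1, 30.2 and 18.1. The proportions in PBS rods were thus near those in PBS cones for these genes. In NaIO3 the same genes stood at 37.6, 13.5 and 10.9 per 100 in rods and 35.9, 16.9 and 13.9 in cones. Opn1mw and Gngt2 lay further apart in NaIO3, at 9.12 and 106 in rods against 32.2 and 55.1 in cones. Arr3 stood higher, at 79.1 per 100 in PBS rods against 34.8 in PBS cones and 46.0 against 13.8 in NaIO3, and Gnb3 stood at 521 per 100 against 36.0 in PBS.

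Gnb3, the cone transducin beta subunit, differed more between the libraries in rods than any member did in cones. Its level was 88.9 CPM (1469 UMIs) in 5101 PBS rods, against 1285 CPM (20604 UMIs) in 4517 NaIO3 rods, higher by 14.4-fold (13.7 to 15.2). Among the 7166 genes measured in rods it ranked 57th from the highest; 29.7% of these genes were at least 1.5 times higher and 8.47% at least 1.5 times lower. Gnb3 was the single member above the minimum level in rods. After thinning, a UMI of Gnb3 was found in 7.40% of PBS rods (6.67 to 8.17) and 68.3% of NaIO3 rods (66.9 to 69.7), and without thinning in 18.4% and 87.7%. Over 5 ranges of depth, from 500 to over 8000 UMIs per cell, the level lay between 61.3 and 117 CPM in PBS rods and between 1254 and 1303 CPM in NaIO3 rods. Over 3 ranges of mitochondrial share the ratio lay between 12.9 and 14.6.

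Within clusters the Gnb3 level of rods is a description, since the clusters were built from the same expression values. The rod-like clusters numbered 0, 1 and 5 held 5080 of the PBS rods and 396 NaIO3 rods, and there Gnb3 had 84.5 CPM in PBS against 457 in NaIO3, a ratio of 5.41 (4.80 to 6.08). The NaIO3 rods of clusters 9 and 3, whose leading genes include the injury genes Edn2 and Fgf2 (and haemoglobin genes in cluster 9), stood at 1214 and 1410 CPM, and those of cluster 16, led by the interferon-induced genes Ifit3 and Ifit1, at 1442 CPM. The 21 PBS rods that fell into cluster 9 stood at 1124 CPM (892 to 1399), near the NaIO3 rods of that cluster. In rods as a whole Gnb1, the beta subunit of rod transducin, had 8517 CPM in PBS against 4904 CPM in NaIO3, a ratio of 0.576 (0.571 to 0.581). The 2 beta subunits thus differed in opposite directions. Of the neighbouring genes, P3h3 stood at 5.03 and 38.9 CPM in rods (7.73-fold, 6.14 to 9.84) and Usp5 at 18.7 and 31.6 CPM (1.69-fold, 1.46 to 1.95). No other annotated gene overlaps Gnb3.

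**Figure D4:**
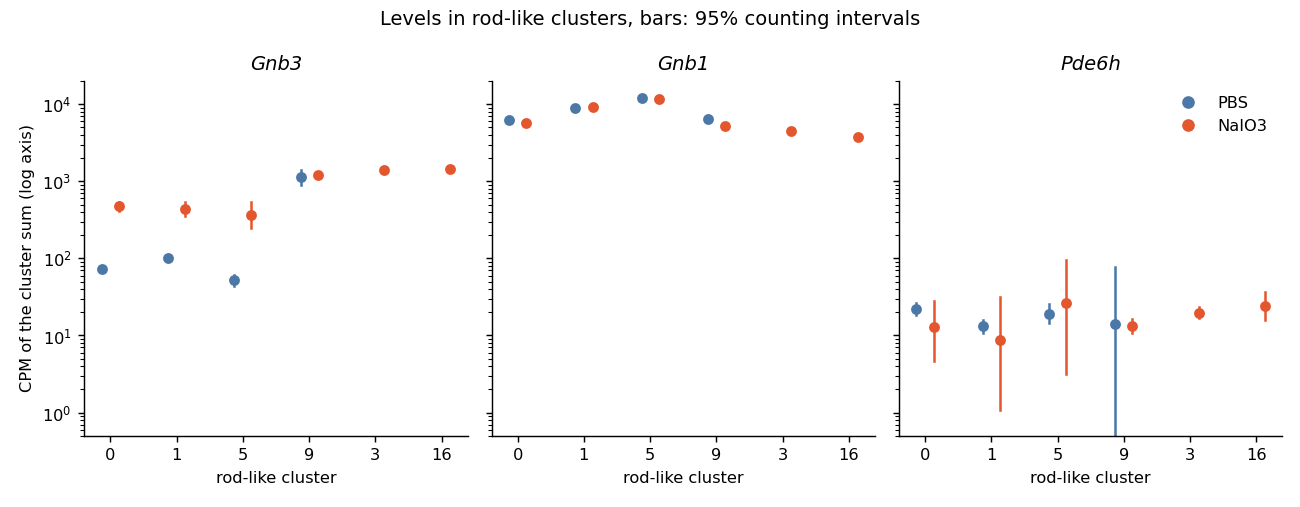
CPM (y axis, log scale) of Gnb3, the rod beta subunit Gnb1 and the cone gene Pde6h in 6 rod-like clusters (x axis), in PBS and NaIO3; bars are 95% counting intervals, and a point is left out where a cluster has under 20 cells of a library. Gnb3 stands at 52.1 to 102 CPM in the PBS cells of clusters 0, 1 and 5 and above 1100 CPM in clusters 9, 3 and 16, whereas Pde6h stays under 30 CPM throughout.

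Gnb3 was not high in every class of the NaIO3 library. In 2020 NaIO3 immune cells (microglia-like, dendritic-like and T or NK-like) it stood at 42.3 CPM (39.8 to 44.99), and in the T or NK-like cells, with a median depth of 31462 UMIs, at 12.2 CPM. Of the 1049 UMIs behind the immune value, 670 came from 181 cells of a microglia-like cluster whose leading genes are rod genes such as Sag and Pdc. Müller glia-like cells stood at 844 CPM, amacrine-like cells at 771 CPM (183 UMIs) and endothelial-like cells at 124 CPM. After thinning, a UMI of Gnb3 was found in 1.08% of T or NK-like cells (0.131 to 3.83). For 100 UMIs of Pde6h, the NaIO3 library held 37.7 of Gnb3 in cones and 7520 in rods, so the ratio of these genes was not the same across classes. Gnb3 thus stood far higher in NaIO3 rods than in the immune cells and endothelial-like cells of the same library. Müller glia-like and amacrine-like cells lay between these and the rods.

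Gngt2, the cone gamma subunit, had a second pattern. In NaIO3 rods it stood at 18.1 CPM, but in the 2020 NaIO3 immune cells at 235 CPM (229 to 241), while the other 8 members apart from Gnb3 stood there at 2.30 CPM or less each. After thinning, a UMI of Gngt2 was found in 22.7% of microglia-like (20.4 to 25.1), 24.2% of dendritic-like (16.8 to 32.8) and 17.2% of T or NK-like cells (12.1 to 23.4), against 1.34% of rods (1.02 to 1.73). Gngt2 overlaps Abi3 on the opposite strand, a gene of immune cells that stood at 117 CPM in them. The sources used here do not say whether counting used strand. Whether reads of Abi3 enter the Gngt2 value in immune cells was not tested. In cones and bipolar cells Gngt2 stood high with little Abi3: at 2727 beside 25.3 CPM in NaIO3 cones, and at 519 beside 2.40 CPM in NaIO3 cells of bipolar-like cluster 8. The PBS library held 13 microglia-like cells and was not compared.

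Bipolar cells carry the photoreceptor signal to the inner retina, and those that respond to light onset are known to use Gnb3 with the gamma subunit Gng13 downstream of the glutamate receptor Grm6. In bipolar-like cells Gnb3 had 1373 CPM (68 PBS cells) against 1823 CPM (602 NaIO3 cells), a ratio of 1.33 (1.23 to 1.43). The bipolar-like cells fell into 2 clusters in different proportions, with 18 of the 68 PBS and 359 of the 602 NaIO3 cells in cluster 7. This ratio therefore mixes makeup with level. Within cluster 8 Gnb3 had 1236 CPM (PBS) against 1536 CPM (NaIO3), but bipolar markers in that cluster differed as well. Gsg1 had 807 CPM (PBS) against 351 CPM (NaIO3), and Scgn 571 against 354 CPM. Prkca went the other way, with 22.3 CPM (PBS) against 318 CPM (NaIO3). Whether the cluster 8 cells of the libraries are of the same kind was not tested. Cluster 7, with Prkca of rod bipolar cells at 2313 CPM, held Gnb3 at 2264 CPM, Gngt2 at 5.07 CPM, Gnat2 at 6.91 CPM and no UMI of Cngb3 (interval up to 1.70 CPM) in 359 NaIO3 cells. In cluster 8, with Scgn and Gsg1 of cone bipolar cells, Gngt2 had 682 CPM in 50 PBS cells against 519 CPM in 243 NaIO3 cells. Gnat2 stood there at 159 and 128 CPM and Cngb3 at 52.9 and 60.3 CPM. In the PBS cells of cluster 8 Pde6h stood at 11.1 CPM, with no UMI of Pde6c (interval up to 10.3 CPM). In the NaIO3 cells other cone genes were present as well, with Pde6h at 409 CPM, Opn1mw at 104 CPM, Pde6c at 68.4 CPM and Opn1sw at 66.6 CPM.

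In Müller glia, the main glia of the retina, cone RNA differed between the libraries. The 8 members other than Gnb3 and Gngt2 stood at 36.3 CPM (8 UMIs) in 32 PBS cells and 760 CPM (15370 UMIs) in 673 NaIO3 cells. A UMI of any of the 8 was found in 298 of the 673 cells (44.3%), and the 68 cells richest in them held 63.1% of the UMIs, up to 282 in 1 cell. The signal was therefore uneven across the cells. T or NK-like cells of the same library, at a median depth of 31462 UMIs against 26984 in Müller glia-like cells, held 38 UMIs of the 8 members in 188 cells. For 100 UMIs of Pde6h, NaIO3 Müller glia-like cells held 13.9 of Pde6c, 15.0 of Gnat2, 50.02 of Gngt2 and 25.5 of Opn1sw, and NaIO3 cones 13.9, 16.9, 55.1 and 35.9. Arr3 stood at 8.45 per 100 against 13.8 in cones, Opn1mw at 21.4 against 32.2 and Gnb3 at 211 against 37.7. The proportions were thus close to those of cones for Pde6c, Gnat2 and Gngt2 and further from them for the others named. The converse was seen as well: in NaIO3 cones the 10 Müller glia markers summed to 3722 CPM against 227 in PBS, and the 10 bipolar markers to 473 against 34.4 CPM, with Trpm1, Vsx1 and Grik1 at 0 in PBS. The part of these in the cone values was not tested; the cones inside the cone-like cluster had a summed ratio of 0.640.

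**Figure D5:**
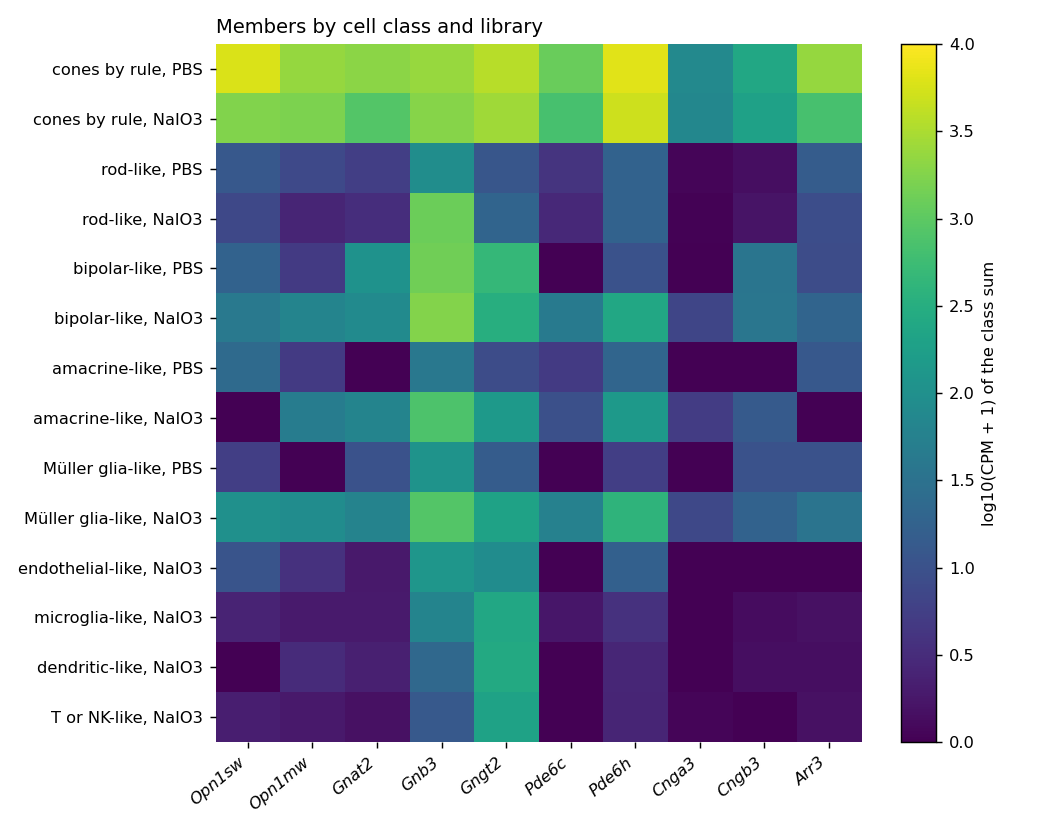
Heat map of log10(CPM + 1) of each member (columns) summed over each cell class in each library (rows with at least 20 cells). Cones are high for all 10 members; Gnb3 is also high in NaIO3 rods (1285 CPM) and in bipolar cells of both libraries, and Gngt2 in bipolar and NaIO3 immune cells.

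Other genes of the pathway were counted in cones from lists of rod counterparts, shared phototransduction genes, outer segment genes, photoreceptor transcription factors, photoreceptor stress genes and other cone genes. Of all 7387 genes measured in cones, 7.69% were at least 1.5 times lower and 24.9% higher, with a median log2 ratio of 0.23. Of 10 rod counterparts, 6 were at least 1.5 times lower and 0 higher, with a median of -0.83. Gngt1, the rod gamma subunit, stood at 10366 and 3321 CPM (0.320, 0.313 to 0.328). Pde6g, the rod inhibitory subunit, stood at 4775 and 1673 CPM and Gnb1 at 4552 and 2097 CPM. Rod-like cells were lower in the same genes, with Gngt1 at 15554 and 5784 CPM, and the 8 rod markers summed to 41488 and 17368 CPM in cones, so rod RNA moves with this list; its part in these values was not tested. At 5 to 10% mitochondrial UMIs all 10 rod counterparts were at least 1.5 times lower, beside 11.0% of all genes.

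Of 16 shut-off, calcium feedback and shared genes, 8 were lower and 1, the exchanger Slc24a2, higher, with a median of -0.49. Of all genes 7.69% were lower and 24.9% higher. Guca1b, an activator of guanylate cyclase, stood at 1079 and 299 CPM (0.277, 0.257 to 0.300), and Pdc, phosducin, at 7004 and 2204 CPM (0.315, 0.306 to 0.324). Guca1a stood at 4976 and 2402 CPM and Rcvrn, recoverin, at 3442 and 1702 CPM. Of 7 outer segment genes, 5 were lower and 0 higher, with a median of -1.01, beside the same shares of all genes. The disc rim proteins Prph2 and Rom1 stood at 3754 and 1366 CPM (0.364, 0.350 to 0.378) and at 3519 and 1749 CPM (0.497, 0.480 to 0.514), Abca4 at 570 and 266 CPM and Fscn2 at 181 and 71.8 CPM. At 5 to 10% mitochondrial UMIs 11 of the 16 shared genes and 6 of the 7 outer segment genes were lower, beside 11.0% of all genes. More genes of both lists were thus lower in this range of mitochondrial share than over all cones. Both lists hold genes that rods also express.

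Of 9 transcription factors measured, 3 were at least 1.5 times higher (Otx2, Thrb and Neurod1) and 1 lower (Nrl), with a median of 0.18, beside 24.9% higher, 7.69% lower and a median of 0.23 over all genes. Thrb and Neurod1 were also higher and Nrl lower by this measure at 5 to 10% mitochondrial UMIs, whereas Otx2 was not called there. Thrb, the thyroid hormone receptor that directs M opsin expression, stood at 304 and 457 CPM (1.504, 1.38 to 1.64), Neurod1 at 1272 and 2324 CPM (1.83, 1.76 to 1.90) and Otx2 at 217 and 350.5 CPM (1.62, 1.47 to 1.79). Nrl, the rod factor, stood at 999 and 371 CPM. Of 7 listed stress genes, 5 passed the minimum level; Edn2, Bcl3 and Fgf2 passed it through the NaIO3 library alone and so had to be higher, and no count is read from this list. Fgf2, a growth factor made by injured photoreceptors, stood at 11.5 and 218 CPM (19.0-fold, 13.6 to 27.3) and Stat3 at 42.1 and 190 CPM (4.51-fold, 3.73 to 5.50). Edn2, endothelin 2, had 0 UMIs in PBS cones, where 3 UMIs would be 0.929 CPM, and 79.0 CPM in NaIO3, and Bcl3 0 UMIs and 42.3 CPM. In NaIO3 rods Edn2 stood at 202 CPM and Bcl3 at 71.1 CPM.

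Of 9 other cone genes measured, 1 was higher (Sall3, 65.7 and 99.8 CPM) and 2 were lower, with a median of -0.35. Of all genes 24.9% were higher and 7.69% lower. The median of this list turned to 0.30 at 5 to 10% mitochondrial UMIs, with 3 higher (Mpp4, Smug1 and Sall3) and 2 lower. There 24.9% of all genes were higher and 11.0% lower, so no result is read from the higher genes of this list. The 2 lower ones were Gnat2, itself a member, and Kcne2, a potassium channel subunit, at 337 and 120 CPM (0.357, 0.314 to 0.405). Gulo stood at 81.5 and 55.6 CPM, short of 1.5 times. Over 16 sums of a class in a library, the 8 genes whose log2(CPM + 10) went most closely with the summed members, among 4123 candidates, were Lrfn2, Syndig1l, Fam19a3, Riiad1, Pygm, Fabp7, Mpp6 and Agr2, with Pearson's r from 0.955 down to 0.885. These sums share 2 libraries, so r is a description. In cones Lrfn2 stood at 52.4 and 40.8 CPM and Fabp7 at 72.2 and 55.6 CPM, whereas Pygm, a glycogen phosphorylase, stood at 186 and 238 CPM and Mpp6 at 323 and 552 CPM. Syndig1l (88.3 and 70.7 CPM), Fam19a3 (212 and 173 CPM), Riiad1 (98.2 and 94.5 CPM) and Agr2 (95.1 and 77.5 CPM) were lower in NaIO3 as well. Genes with the class pattern of the members thus lay on both sides of a ratio of 1 in cones, with only Pygm and Mpp6 above it.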

How the data were processed

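The authors deposited filtered Cell Ranger matrices of unnormalized UMI counts (version 3.0.2 per the file headers; mm10 per the submitters' processing notes; annotation version not given in the sources used here). Cells with at least 500 UMIs, 300 genes and at most 15% mitochondrial UMIs were kept. Scrublet (expected rate 6%) removed 180 NaIO3 cells but marked 0 PBS cells, where it failed. Cells were clustered with scanpy 1.11.5 (2000 variable genes, 30 components, 15 neighbours, Leiden resolution 0.8) and clusters named from cell type markers; names are rebuilt, and 79 PBS and 917 NaIO3 cells stayed unnamed. The files held 26605477 PBS and 75981079 NaIO3 UMIs, and kept cells had medians of 2486 and 2930. Sums per class gave CPM with exact Poisson intervals, ratios exact conditional binomial and shares exact (Clopper-Pearson) binomial intervals. Ratios were tested on simulated data. Alternatives used TMM (edgeR 4.0.16, R 4.3.3), other filters, cone rules and weightings. Named genes are all members, up to 4 of each list by size of ratio, and the 8 most alike genes. Members and lists were chosen with earlier results of these data known. Positions come from GENCODE M21 and promoters from RefSeq. Some genes are not reported here.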

Additional observations from a re-analysis of the deposited data

Results flagged for a closer look

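Several members differed between the libraries in one direction in cones and in the other direction in another class, with both counting intervals clear of a ratio of 1. With 1 library a group the difference between classes was not tested. Gnb3, with a ratio of 0.775 in cones, had a ratio of 14.4 in rod-like and 1.33 in bipolar-like cells (whose cluster makeup differs between the libraries). It had a ratio of 20.1 in amacrine-like cells, from 10 PBS UMIs, and 7.45 in Müller glia-like cells, from 25 PBS UMIs. In the cone-like cluster, which includes cells outside the rule, its ratio was 1.13. The contrast with cones therefore depends on how cones are chosen. Gngt2, at 0.726 in cones, had a ratio of 1.71 in rod-like cells, from 10.6 to 18.1 CPM; in cones at 5 to 10% mitochondrial UMIs its ratio was 1.06, so the opposite direction is not seen there. Opn1sw, at 0.302 in cones, had a ratio of 2.44 in bipolar-like cells, from 9 PBS UMIs. Pde6h, at 0.742 in cones, had a ratio of 26.6 in bipolar-like and 7.26 in amacrine-like cells, from 5 PBS UMIs in each; in cones at 5 to 10% mitochondrial UMIs its ratio was 1.16, again the same direction as in those classes.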

How the results depend on the processing

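No paired analysis was possible because each group is 1 library. Opn1sw, Arr3 and Gnat2 were at least 1.5 times lower in NaIO3 cones under all 16 alternatives, with ratios from 0.230 to 0.544, 0.235 to 0.583 and 0.353 to 0.616; Pde6c was so under 10 of 15. The cone share was 4.29% in PBS with no mitochondrial limit, 0.372% and 1.52% (PBS and NaIO3) at a 5% limit, which left 7 PBS cones, 4.38% and 2.87% with higher minimums of UMIs and genes, 3.09% and 1.11% at a 1% threshold, 3.30% in NaIO3 at a 0.25% threshold, 4.25% and 2.74% for the cone-like cluster, and 1.82% in NaIO3 for rule cones inside it. The summed ratio in cones was 0.537 with no mitochondrial limit, 0.923 at the 5% limit, 0.615 and 0.508 at the 1% and 0.25% thresholds, 0.671 in the cluster, 0.640 for rule cones inside it, 0.488 with TMM and 0.487 with median-of-ratios scaling, 0.495 as a mean over cells and 0.525 less the rod level; the 5 to 10% and 10 to 15% mitochondrial ranges, added after the data were seen, gave 0.831 and 0.836. At least 1.5 times lower were 8 members at the 0.25% threshold, 9 with either scaling and 8 as a mean over cells. At the 5% limit 2 members were higher. With TMM 14.9% of all genes were lower. The share of all genes was not computed for the other settings of these counts, so they describe the members only. Ratios turned above 1 for Gnb3 (1.62 at the 5% limit, 1.13 in the cluster), Gngt2 (1.57 at the 5% limit, 1.06 and 1.12 in the mitochondrial ranges), Pde6h (1.35, 1.16 and 1.01 likewise), Cngb3 (1.496, 1.05 and 1.51 likewise), Opn1mw (1.20 and 1.05 in the ranges) and Cnga3 (1.20 in the cluster, 1.14 for rule cones inside it). In rods the summed ratio was 7.62 with no mitochondrial limit, 7.02 at the 5% limit, 9.59 with doublets kept and 7.88 as a mean over cells. Without Gnb3, a choice added after the data were seen, it was 0.832, and 0.682, 0.491, 0.936 and 0.653 with no mitochondrial limit, at the 5% limit, with the higher minimums and as a mean over cells. Gnb3 in rods had a ratio of 13.2 at the 5% limit, 16.5 with doublets kept, 11.9 and 11.8 with TMM and median-of-ratios scaling, 15.3 as a mean over cells and 5.41 in clusters 0, 1 and 5. Fewer cones remain at the 5% limit and the 1% threshold; the cause of the other changes was not tested. Depth limits Cnga3, with 242 and 184 UMIs in cones, and the classes with under 70 PBS cells.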
